A study of Mus musculus with 6 samples.

Results

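The genes described here are 10 genes of the major histocompatibility complex (MHC) class I presentation route and its immunoproteasome, namely H2-K1, H2-D1, B2m, Tap1, Tap2, Tapbp, Nlrc5, Psmb8, Psmb9 and Psmb10. They were chosen by symbol from the 41079 genes in the tables, and all 10 were among the 14618 genes that passed the filter on low counts and were tested. RNA-seq was performed on primary microglia, the resident macrophages of the brain, grown from C57Bl/6N pups of 1 to 3 days. There were 3 control and 3 optimized cultures, with 1 library each. Both groups came from mixed glial flasks that held cells of more than 1 brain and were fed L-929 conditioned medium, and in both the microglia were shaken off and attached briefly in medium with FBS before serum was withdrawn. Control cultures were then kept in serum-free DMEM/F12. Optimized cultures were kept in the same base medium with hTGF-β1, hIL-34 and hCX3CL1, human factors that neurons and glia make in the brain, at 100 ng/mL each. The paper, but not the labels, adds cholesterol, insulin-transferrin-selenium and a collagen IV coating for the optimized cultures, so the effect of any single ingredient cannot be told apart. The comparison asks how the optimized medium differed from plain serum-free medium in the RNA of this antigen presentation route.

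Class I molecules show fragments of a cell's own proteins, and of any virus it makes, to CD8 T cells. Proteasomes cut the proteins, and in cells exposed to interferon 3 exchanged catalytic subunits turn the standard particle into the immunoproteasome. The transporter Tap1/Tap2 carries the peptides into the endoplasmic reticulum, where tapasin (Tapbp) holds an empty heavy chain paired with β2-microglobulin until a peptide fits. Nlrc5 is the transactivator that occupies class I promoters and has no DNA-binding specificity of its own. Resting microglia carry little class I at the surface, and interferon raises it.

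Of the 10 genes, 9 fell under the optimized conditions, none rose, and B2m did not pass the test. Over all 14618 genes the same test called 15.2% lower and 14.7% higher, or 29.8% in either direction. The 9 genes were lower by between 21.0% (Tapbp) and 49.9% (Psmb10), with the 2 catalytic subunits Psmb9 and Psmb10 and the peptide transporter subunit Tap1 changing most. The median log2 fold change of the 10 genes was -0.65, beside 0.01 over all genes tested. Together the 10 genes took 0.947% to 1.05% of all counts in the control libraries and 0.566% to 0.694% in the optimized libraries. This share is of raw counts, scaled by library size alone, and most of it came from B2m, H2-D1 and H2-K1. Calls rest on an adjusted p under 0.05 in edgeR's quasi-likelihood test, adjusted after Benjamini-Hochberg across all genes tested, and every adjusted p below comes from it unless another test is named.

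Total counts were 20628148 to 27261839 per library. The summed level of 8 microglial markers, all detected, was 7977 to 8606 CPM (counts scaled to a common library size) in control and 12441 to 15940 in optimized libraries. No member of the T and NK cell list reached more than a trace, with a sum of 0 to 0.122 CPM in control and 0 in optimized libraries, and Cd3e, Cd3g and Nkg7 were at 0 in all 6. Fibroblast markers summed to 21.3 to 27.8 CPM in control and 22.01 to 78.7 in optimized libraries, and oligodendrocyte markers to 125 to 140.3 and 156 to 190, with all 5 genes of each list detected. Lists for neurons, astrocytes, endothelial cells, B and dendritic cells and monocytes each summed to at most 11.2 CPM in any library. The part of these other cells in the differences was not tested. In RNA from whole cultures, fewer cells of a type and less RNA per cell cannot be told apart.

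The classical class I genes share a promoter arrangement that partners of the transactivator recognise, and the stretches just upstream of the starts that RefSeq lists for 4 of the genes are shown for that reason. RefSeq windows, 250 bases before to 50 after a start, were at hand for 8 of the 10 genes (not Tap2 or Nlrc5) and were placed in GRCm39 by exact match. RefSeq lists 2 starts for H2-K1, of which the first was used. The GENCODE positions given below begin further upstream for H2-D1, B2m and Tap1, so the stretches of these genes lie inside those positions. The sequences read 5′ to 3′ on the strand of the gene, the last base adjoins the start, and capitals mark letters that match a motif on either strand. The stretches are chr17:34219322-34219501 on the minus strand for H2-K1, chr17:35481890-35482069 on the plus strand for H2-D1, chr2:121977988-121978167 on the plus strand for B2m and chr17:34406280-34406529 on the plus strand for Tap1.
H2-K1: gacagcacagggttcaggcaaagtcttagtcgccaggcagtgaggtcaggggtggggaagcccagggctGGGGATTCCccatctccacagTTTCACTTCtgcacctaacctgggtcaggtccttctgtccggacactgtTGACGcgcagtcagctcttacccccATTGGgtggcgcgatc
H2-D1: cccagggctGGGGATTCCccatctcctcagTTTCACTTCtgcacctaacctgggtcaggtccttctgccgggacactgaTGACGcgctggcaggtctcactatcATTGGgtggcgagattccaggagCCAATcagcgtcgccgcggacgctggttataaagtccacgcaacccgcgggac
B2m: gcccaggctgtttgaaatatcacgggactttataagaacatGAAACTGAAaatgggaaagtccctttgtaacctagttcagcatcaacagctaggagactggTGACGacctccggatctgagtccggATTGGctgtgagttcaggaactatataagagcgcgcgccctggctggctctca
Tap1: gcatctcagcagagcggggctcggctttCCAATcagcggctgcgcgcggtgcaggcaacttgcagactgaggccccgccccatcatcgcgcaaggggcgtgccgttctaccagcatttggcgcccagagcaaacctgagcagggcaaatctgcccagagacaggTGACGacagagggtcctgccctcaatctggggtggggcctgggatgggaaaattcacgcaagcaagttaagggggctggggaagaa

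The capitals in the H2-K1 and H2-D1 stretches are, from 5′ to 3′, a κB-like motif (GGGNNTTCC), a short form of the interferon-stimulated response element core (GAANNGAAA, read on the opposite strand), the half-site of a cAMP response element (TGACG) and an inverted CCAAT box (ATTGG). H2-D1 holds a second CCAAT box nearer its start. H2-K1 also has a second one, 8 to 12 bases after its listed start and so beyond the stretch shown. The κB-like motif occurred in 7.18% of the windows of 10921 tested genes and the short core in 6.09%, and among the 8 windows at hand both were found in H2-K1 and H2-D1 alone. B2m carries the usual response element core (GAAANNGAA, in 7.25% of all windows) in place of the short one. A gamma-activated sequence (TTCNNNGAA, in 6.84% of all windows) was found in the window of Psmb8 and of no other of the 8. These motifs were searched on both strands, and the longer ones do not share letters with TGACG or CCAAT in these stretches.

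Exactly 20 bases lie between TGACG and ATTGG in H2-K1, in H2-D1 and in B2m. TGACG alone occurred in 31.0% of all windows and CCAAT in 38.6%, but the pair at this distance and orientation occurred in 16 of 10921 windows, which is 0.147%. The distance was taken from these 3 promoters, so their presence among the 16 is not a result. The other 13 genes include H2-M3, a non-classical class I heavy chain, and 7 of the 13 fell and 1 rose, beside 15.6% lower among all genes with a window. The distance was chosen after values were seen, so this count is a description, and a link between the motif pair and the falls was not tested. A match describes letters in a window and is not evidence of binding. In Tap1 the half-site and the CCAAT box lie far apart and in another arrangement. The Tap1 stretch also holds the start of Psmb9, which is transcribed the opposite way from 226 bases upstream, so that both genes share it.

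The heavy chains H2-K1 and H2-D1 form the peptide groove and are the classical class I molecules of this strain. H2-K1 lies at chr17:34214987-34219321 and H2-D1 at chr17:35481691-35486475 (GENCODE M39, GRCm39). H2-D1, in CPM after TMM scaling (trimmed mean of M-values, which corrects for the make-up of a library), was at 2565, 2846 and 3117 in control replicates 1 to 3 and at 1154, 1933 and 1723 in optimized replicates 1 to 3. Every optimized library was below every control library, and optimized replicate 1 was the lowest by a wide margin. The log2 fold change of H2-D1 was -0.83 ± 0.18 (SE), with an adjusted p of 0.00601. H2-K1 was at 1788, 2031 and 2060.5 CPM in control and at 1018, 1499 and 1369.5 CPM in optimized replicates. The groups again did not overlap, and the fall was smaller, at -0.60 ± 0.15 on the log2 scale (adjusted p = 0.0117). Without control replicate 2 the H2-K1 call was lost, at -0.57 (adjusted p = 0.059).

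The light chain β2-microglobulin, without which heavy chains do not reach the surface, was the one gene of the 10 that did not pass the test. B2m (chr2:121977957-121983594) was at 3195, 3333 and 3905 CPM in control and at 2488, 3297 and 2922 CPM in optimized replicates. Optimized replicate 2 lay above control replicate 1, so the groups overlapped. The log2 fold change was -0.26 ± 0.13 (SE), with a 95% interval of -0.56 to 0.04 and an adjusted p of 0.186. The interval holds both no change and a fall as large as that of Tap2. With counts scaled by library size alone, a scaling that moved the median of all genes by -0.13 on the log2 scale, B2m passed the test at a log2 fold change of -0.39 (adjusted p = 0.0107).

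In the endoplasmic reticulum, Tap1 and Tap2 form the peptide transporter and Tapbp (tapasin) bridges it to the heavy chain. Tap1 (chr17:34405996-34416199) was at 130.4, 139.5 and 129 CPM in control and at 67.3, 70.8 and 77.7 CPM in optimized replicates. The spread within each group was small beside the gap between them, and the log2 fold change of Tap1 was -0.89 ± 0.09 (SE), with an adjusted p of 4.08e-05, the smallest of the 10 genes. Tap2 (chr17:34422501-34435829), its partner, was at 80.7, 83.9 and 84.6 CPM in control and at 55.8, 65.1 and 64.7 CPM in optimized replicates. The fall of Tap2 was -0.43 ± 0.09 on the log2 scale (adjusted p = 0.00494). Tapbp (chr17:34134873-34148267) was at 762, 760.5 and 780.3 CPM in control and at 546, 639 and 634 CPM in optimized replicates, a log2 fold change of -0.34 ± 0.09 (adjusted p = 0.0222). This was the smallest change among the 9 genes, although the groups stood well apart. The Tapbp call was lost without any one of the control replicates or without optimized replicate 3, with log2 fold changes of -0.33 to -0.37 in these 4 fits.

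Nlrc5 (chr8:95160984-95253900), the class I transactivator, was the lowest of the 10 genes per length. Its level was 82.7, 82.3 and 75.6 CPM in control and 62.3, 36.8 and 49.0 CPM in optimized replicates. The controls were close together and the optimized libraries were spread, with replicate 1 the highest and replicate 2 the lowest. The log2 fold change was -0.70 ± 0.16 (SE), with an adjusted p of 0.0085. Without optimized replicate 1 the value was -0.90 and without optimized replicate 2 it was -0.53, and the call held in both.

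The immunoproteasome subunits Psmb8, Psmb9 and Psmb10 take the places of the constitutive catalytic subunits Psmb5, Psmb6 and Psmb7. Psmb10 (chr8:106662362-106665077) was at 93.3, 102 and 107 CPM in control and at 35.4, 58.5 and 57.9 CPM in optimized replicates. It changed most of the 10 genes, by -0.997 ± 0.171 (SE) on the log2 scale (adjusted p = 0.00152). Psmb9 (chr17:34400960-34406738) was at 36.6, 39.1 and 43.0 CPM in control and at 16.4, 24.1 and 20.8 CPM in optimized replicates, a log2 fold change of -0.95 ± 0.14 (adjusted p = 5.75e-04). Psmb10 and Psmb9 were thus 49.9% and 48.3% lower. Psmb8 (chr17:34416690-34420428) was at 122.7, 129.9 and 152 CPM in control and at 81.0, 111 and 109 CPM in optimized replicates, with all optimized libraries below the controls. Its fall was smaller, at -0.42 ± 0.13 (adjusted p = 0.0371), and the call was lost in the same 4 fits as that of Tapbp, with log2 fold changes of -0.34 to -0.49.

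**Figure D1:**
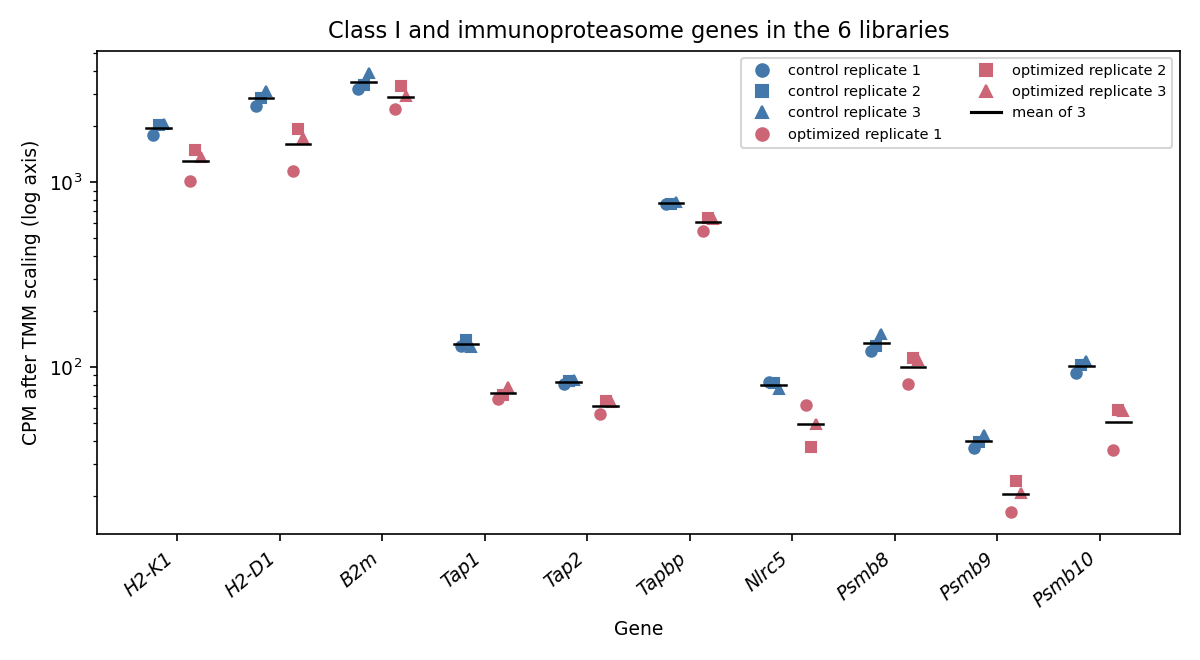
Level of each of the 10 genes in the 6 libraries, as CPM after TMM scaling on a log axis, with control in blue, optimized in red, the replicate number by symbol and a line at the mean of 3. The optimized libraries lie below all controls for 9 genes, B2m overlaps, and optimized replicate 1 (circle) is the lowest of its group except for Nlrc5.

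All optimized libraries were below all control libraries for 9 of the 10 genes, a pattern shown by 22.5% of all genes tested, while 21.4% showed the opposite one. The libraries also moved together within a group. Optimized replicate 1 was the lowest of its group for 9 of the 10 genes and the highest for Nlrc5, and optimized replicate 2 was the highest for 8. Among controls, replicate 1 was the lowest for 7 genes and replicate 3 the highest for 8. Deviations from the group mean also varied with gene length over all 14618 genes, with Pearson's r of 0.27 in optimized replicate 1 and -0.29 in optimized replicate 2, given as a description. With a trend over gene length removed, the same number of members, 9, was lower, and their median was -0.66. Without optimized replicate 1 the median was -0.54 and 9 genes were still lower.

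Per length, in FPKM (fragments divided by transcript length and library size), the 10 genes covered a wide range. B2m was at 4108 ± 294 FPKM in control and 3109.9 ± 314 in optimized cultures (SD, n = 3), at the 99.9th percentile of tested genes in both. The heavy chains followed, with H2-D1 at 1661 ± 115 and 847 ± 186 and H2-K1 at 914 ± 60.3 and 547 ± 87.7 FPKM. Tapbp came next at 283 ± 6.33 and 203 ± 13.1 FPKM, then Psmb8 at 112 ± 8.49 and 75.5 ± 10.8. These are all transcripts of the upper end of the distribution, with Psmb8 at the 96.5th percentile in control. Psmb10 was at 80.7 ± 4.13 and 36.6 ± 8.73 FPKM, Tap1 at 45.8 ± 3.34 and 22.5 ± 1.88, and Tap2 at 33.9 ± 1.03 and 22.9 ± 1.46. Psmb9 was at 31.3 ± 1.59 and 14.7 ± 2.24 FPKM and Nlrc5 at 10.3 ± 0.876 and 5.79 ± 1.71. In control libraries no neighbours in this order overlapped. In optimized libraries Tap2 stood above Tap1 in the order of means, and that pair was the only one that overlapped.

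Ratios within a library do not depend on how libraries are scaled against each other, and they show how unequally the partners changed. The ratio of Psmb10 to its constitutive counterpart Psmb7 was 1.06, 1.10 and 1.11 in control and 0.515, 0.651 and 0.678 in optimized replicates, a log2 difference of -0.84 ± 0.13 (SE). For Psmb9 over Psmb6 the mean ratio was 0.216 ± 0.0052 in control and 0.154 ± 0.0030 in optimized cultures (SD, n = 3), a log2 difference of -0.49 ± 0.03. For Psmb8 over Psmb5 it was 1.30 ± 0.092 and 1.05 ± 0.049, a log2 difference of -0.30 ± 0.07. In each pair the ratio was lower in every optimized library than in any control library. The transporter subunits also shifted, from a Tap1/Tap2 ratio of 1.35 ± 0.060 to 0.984 ± 0.057, a log2 difference of -0.46 ± 0.06.

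At the level of the class I molecule, the summed heavy chains relative to B2m were at 0.617, 0.662 and 0.602 in control and at 0.391, 0.469 and 0.476 in optimized replicates, a log2 difference of -0.50 ± 0.10 (SE). There was less heavy-chain RNA per light-chain RNA in each optimized library than in any control. H2-K1 relative to H2-D1 went the other way, from 0.551 ± 0.021 to 0.652 ± 0.045 (SD, n = 3), a log2 difference of 0.24 ± 0.07. The groups did not overlap for any of the 6 ratios, and each had a two-sided exact permutation p of 0.1, which is the smallest that 3 against 3 allows, and 0.1 again after Benjamini-Hochberg adjustment over the 6. No ratio could therefore pass a threshold of 0.05 in this design.

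**Figure D2:**
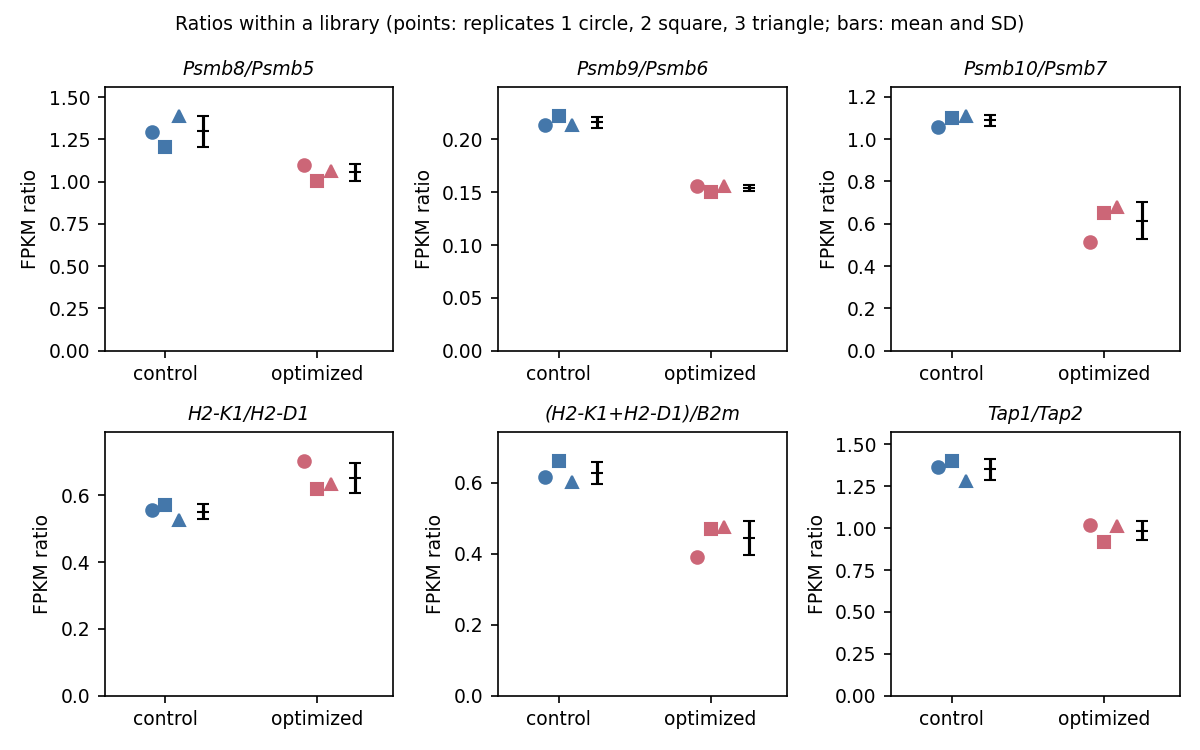
Ratios of FPKM within each library for 6 pairs, with control in blue, optimized in red, symbols for replicates 1 to 3, and the mean with SD in black. Optimized libraries lie below the controls for 5 ratios and above them for H2-K1 over H2-D1, without overlap.

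The remaining genes of the route were followed with 61 genes in 7 lists, of which 60 were listed in the tables and 55 tested. Of the 55 genes, 27 fell, 7 rose and 21 did not pass, beside 15.2% lower and 14.7% higher over all genes tested. These shares are also the background for the counts of each list below. The median of the 55 was -0.26 on the log2 scale. Without control replicate 2, or without control replicate 3, 17 of the 55 fell. Lower calls over all genes also dropped in these fits, from 2218 to 1646 and 1705. Among the constitutive catalytic subunits, Psmb6 fell by 0.46 on the log2 scale (adjusted p = 0.0363), and Psmb7 (-0.19) and Psmb5 (-0.12) did not pass. Psmb6 lost its call in the same 4 fits as Tapbp and Psmb8, with -0.39 to -0.51, and Psmb7 passed with library size alone (-0.32) and in the 3 limma fits on FPKM (-0.33 to -0.34, adjusted p = 0.0283 to 0.0306).

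Of 5 proteasome activators and assembly factors, 3 fell, none rose and 2 did not pass, with a median of -0.47. Psme1 and Psme2 form the PA28αβ cap, which opens the core and is, like the immunoproteasome, raised by interferon. Psme2 was at 149, 153 and 174 CPM in control and at 70.1, 88.8 and 90.1 CPM in optimized replicates (log2 fold change -0.93 ± 0.11, adjusted p = 1.81e-04). Psme1 fell by 0.70 on the log2 scale (adjusted p = 9.90e-04). Pomp, which helps assemble new proteasomes, fell by 0.47 (adjusted p = 0.0405) and lost its call in the 4 fits named above, with -0.39 to -0.54. The nuclear activator Psme3 was at -0.03 and did not pass.

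The 5 factors for peptide trimming and loading split, with 2 lower, 2 higher and 1 not past the test. Tapbpl, a peptide editor related to tapasin, was at 30.3, 34.2 and 36.3 CPM in control and at 16.4, 18.2 and 19.9 CPM in optimized replicates (log2 fold change -0.89 ± 0.11, adjusted p = 2.17e-04). The peptidase Erap1 fell by 0.25 (adjusted p = 0.0488), a call at the threshold that was lost under relative log expression factors (-0.24), without a filter (-0.27), with at least 10 counts in every library (-0.24) and without any one of 5 of the 6 libraries (-0.21 to -0.29), the exception being optimized replicate 1. Of the general chaperones of the endoplasmic reticulum that also serve class I assembly, 2 rose. Pdia3, a disulfide isomerase, rose from 721, 714 and 795 CPM to 1195, 1401 and 1386 CPM (log2 fold change 0.84 ± 0.10, adjusted p = 1.88e-04), and Calr rose by 0.70 ± 0.13 (adjusted p = 0.00302). Canx was at 0.21 and did not pass (adjusted p = 0.094), but passed with DESeq2 (adjusted p = 0.031) and with the trend over gene length removed (adjusted p = 0.0192, and 0.0205 with a replicate block as well).

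The non-classical class I genes, which encode related heavy chains of narrower function, included the largest fall of the lists. Of 15 tested, 13 fell, none rose and 2 did not pass, with a median of -0.86. The 13 calls are not independent, since H2-Q6 and H2-Q8 had nearly the same counts in each library, and H2-Q7 and H2-Q9 similar ones. H2-Q10 was called although its groups overlapped, with 33, 89 and 650 counts in control replicates 1 to 3. H2-Q2 was uneven, with 6, 70 and 315 counts in optimized replicates 1 to 3. H2-M2 was at 94.4, 112 and 138 CPM in control and at 6.25, 6.94 and 9.82 CPM in optimized replicates, a log2 fold change of -3.91 ± 0.19 (adjusted p = 5.02e-07). H2-Q4 fell by 1.58 and H2-Q6 by 1.01 on the log2 scale, and H2-M3, which presents formylated peptides, by 0.45. H2-T22 fell by 0.63. In contrast, H2-T23 (Qa-1), a ligand of inhibitory receptors on NK cells, was at 263, 289 and 293 CPM in control and at 217, 311 and 282 CPM in optimized replicates and did not pass (log2 fold change -0.06 ± 0.13). Reads of these genes, H2-K1 and H2-D1 may be exchanged in counting. Of the 50-base stretches of the H2-D1 transcript, 14.2% also occur in transcripts of other genes, H2-Q1, H2-Q7, H2-Q6 and H2-K1 among the most frequent, and for H2-K1 it was 8.79%. For 100-base stretches the shares were 4.61% for H2-D1 and 0% for H2-K1.

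Of 5 class I-like molecules, which do not present self peptides to CD8 T cells, none fell and 3 rose. Mr1, which presents vitamin B metabolites, was at 17.4, 18.6 and 16.95 CPM in control and at 58.4, 61.65 and 59.4 CPM in optimized replicates (log2 fold change 1.76 ± 0.09, adjusted p = 5.02e-07). Cd1d1, which presents lipids, rose by 0.85 (adjusted p = 0.00117) and the Fc receptor Fcgrt by 0.69 (adjusted p = 0.00499). Both genes also pair with β2-microglobulin, as Mr1 does. Mill2, near the detection limit, was at -0.60 ± 0.40 and did not pass.

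**Figure D3:**
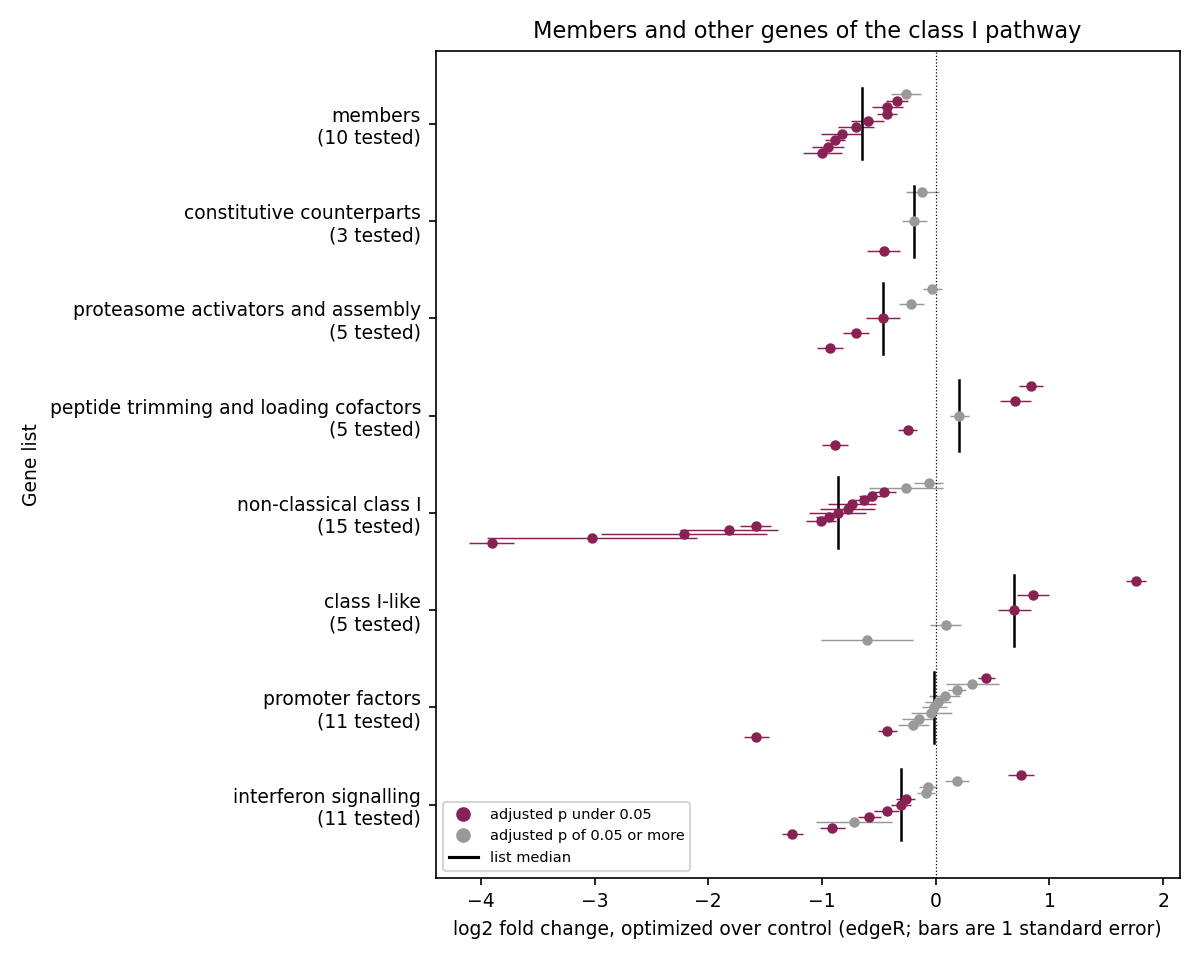
Log2 fold change (optimized over control) with 1 standard error for the 10 members and the 55 tested genes of the 7 pathway lists, with a black line at each list's median and dark points for an adjusted p under 0.05. The members (median -0.65) and the non-classical class I genes (median -0.86) lie to the left of 0, while class I-like genes (median 0.69) lie mostly to the right.

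Of 11 factors that act on class I and class II promoters, 2 fell, 1 rose and 8 did not pass. The shares over all genes tested were 15.2% lower and 14.7% higher. Irf1, an interferon-induced activator of the response element, was at 88.5, 102 and 95.8 CPM in control and at 27.9, 32.6 and 35.4 CPM in optimized replicates (log2 fold change -1.58 ± 0.11, adjusted p = 3.42e-06). Irf2 fell by 0.42 (adjusted p = 0.00294). Nfya, a subunit of the factor that recognises the CCAAT box, rose by 0.45 (adjusted p = 0.00132). Rfx5, part of the complex that recruits Nlrc5, was at -0.01 ± 0.11, and Ciita, the class II counterpart of Nlrc5, was at 0.32 ± 0.23 with 2.65 to 4.74 CPM, and neither passed.

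Interferon signalling was represented by 13 genes, of which 11 were tested, 6 fell and 1 rose. Ifng had no count in any library and Ifnb1 had 0 to 0.11 CPM, so neither was tested. Ifngr1, a chain of the interferon-γ receptor, was at 290, 307 and 294 CPM in control and at 110.1, 131 and 131 CPM in optimized replicates (log2 fold change -1.26 ± 0.09, adjusted p = 5.82e-06). Ifnar2, a chain of the type I receptor, rose by 0.75 (adjusted p = 5.80e-04). Downstream, Stat2 fell by 0.91 and Tyk2 by 0.58 on the log2 scale. No order in time between these genes and the class I genes can be read from a single time point.

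Of the 10 genes, 6 lie in the interval from H2-K1 to H2-D1 on chromosome 17 (chr17:34214987-35486475), and Psmb9, Tap1, Psmb8 and Tap2 stand side by side within 34.9 kb. All 6 fell. The 70 other tested genes that lie inside the interval had 8 lower (11.4%) and 13 higher (18.6%), beside 15.2% and 14.7% over all genes tested. Their median was -0.05 on the log2 scale. Of the 7 tested class II genes in the interval, 6, among them H2-Ab1 with a log2 fold change of 1.46 (adjusted p = 5.51e-04), rose. The exception was H2-Aa, at -0.50, which did not pass (adjusted p = 0.671). Some members overlap other genes on the opposite strand, and since the strand setting of the counting was not given in the sources used here, such reads cannot be told apart. Tap1 and Psmb9 overlap over 743 exonic bases, and H2-K1 shares 855 with the predicted gene Gm53999, which had a log2 fold change of -0.64. Tapbp shares 1130 exonic bases with the predicted gene Gm19412 on the opposite strand (log2 fold change -0.33) and 923 with Zbtb22 on its own strand (-0.08), and Nlrc5 shares 78 with 9330175E14Rik on the opposite strand (-0.58).

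**Figure D4:**
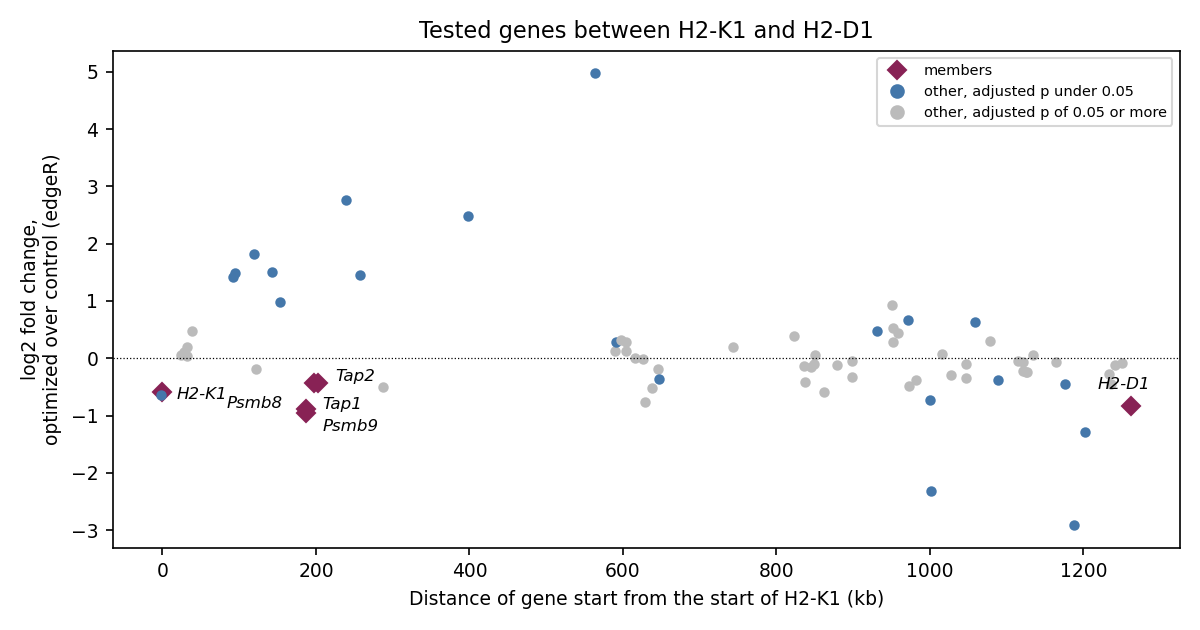
Log2 fold change (optimized over control) of the tested genes from H2-K1 to H2-D1 against the distance of their start from that of H2-K1 in kb, with members as diamonds. The 6 members lie between -0.95 (Psmb9) and -0.42 (Psmb8) among other genes of both signs.

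By root mean square difference of centred log2 CPM over the 6 libraries, the genes outside the set whose profile was most like the mean profile of the 10 genes were Grb2 (0.038), Cd82 (0.039), Psme1 (0.042), Stard3 (0.044) and Cdk1 (0.045). Grb2, an adaptor of receptor tyrosine kinases, was at 256, 281 and 283 CPM in control and at 159, 196 and 184 CPM in optimized replicates. With 6 libraries in 2 groups, such likeness rests mainly on the difference between the groups.

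**Figure D5:**
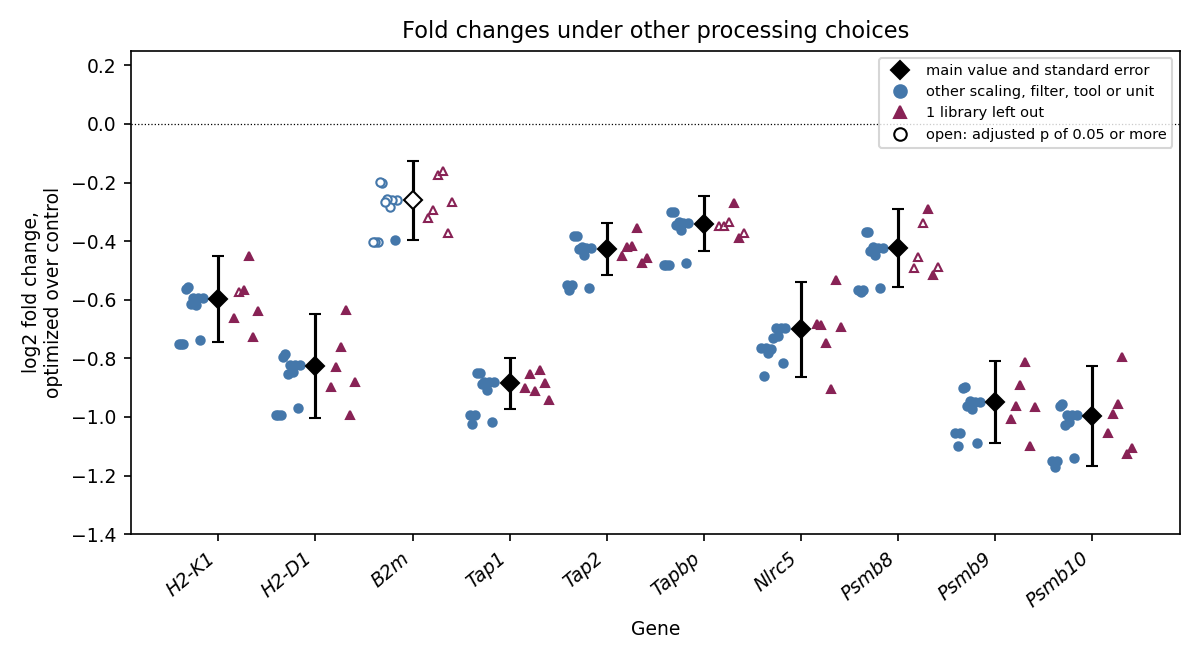
Log2 fold change of each of the 10 genes in the main test (diamond, with 1 standard error), under other scalings, filters, tools and units (blue circles) and with 1 library left out (triangles), all open where the adjusted p was 0.05 or more. All values lie below 0, and open symbols are found for B2m, Tapbp, Psmb8 and, in 1 fit, H2-K1.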

How the data were processed

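RNA-seq of 6 libraries was analysed, 3 per condition, grouped by the labels. Paired-end reads had been aligned by the authors with HISAT2 (build mm39) and counted by featureCounts, and they deposited raw counts per gene and FPKM values. Versions, the annotation, the strand setting and how FPKM was made are not given in the sources used here. The paper calls the cultures biological replicates. The members and gene lists were chosen with earlier results of these data known.

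Counts were tested in R 4.3.3 with edgeR 4.0.16 (filterByExpr, TMM factors, glmQLFit and glmQLFTest, no covariates, Benjamini-Hochberg adjustment over 14618 genes, threshold 0.05). The standard error is the fold change divided by the square root of F. The coefficient of variation between replicates was 0.128. Total counts of 20628148 to 27261839 gave every member at least 346 counts per library, so the replicate spread limits precision. FPKM served for levels and ratios. The 17 alternative fits included DESeq2 1.42.0, scaling by library size alone or by relative log expression, and omission of the filter. Others were at least 10 counts in every library, gene length removed by a spline, a block for the replicate number, and both of these together. Each library was also omitted in turn. The tool limma 3.58.1 was run on log2(FPKM + 1), with and without a mean FPKM of at least 1, and on log2(FPKM + 0.1), a scale that understates changes of low genes. An adjusted p under 0.01 was a stricter threshold on the main fit. Checked on simulated data were the main edgeR fit, the block, the length removal, both together, DESeq2 and limma on log2(FPKM + 0.1). The simulated data held no trend over gene length, and the other steps were not checked on them.

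Named were all members, genes of the fixed lists including each list's lowest and highest, and the 5 genes other than members, of at least 5 CPM and with no predicted-gene symbol, most like the members. H2-Ab1, H2-Aa, Gm53999, Gm19412, Zbtb22, 9330175E14Rik and the distance between the promoter motifs were chosen after values were seen. Positions are from GENCODE M39, which held 35087 of 41079 symbols. Promoter windows are from RefSeq (GRCm38.p6), with the first listed start per gene.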

Additional observations from a re-analysis of the deposited data

How the results depend on the processing

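All 10 members stayed below 0 in all 17 alternatives, and the number lower was 9 except for 10 with library size alone (B2m added), 6 at an adjusted p under 0.01 and 6 to 9 with 1 library left out, where it was 7, 6 and 7 without control replicates 1, 2 and 3 and 7 without optimized replicate 3. H2-K1 lost its call without control replicate 2 (-0.57, adjusted p = 0.059, edgeR). The members' median moved from -0.65 to -0.78 with library size alone and to -0.81 with limma on log2(FPKM + 0.1). Library size alone moved the median of all genes by -0.13 and the share of calls that were higher from 49.1% to 32.3%, and limma on FPKM gave 28.4% to 31.3%. Pathway genes lower numbered 27, but 16 at an adjusted p under 0.01 and 17 to 29 with 1 library left out. The 17 were found without control replicate 2 or 3, where lower calls over all genes also dropped. Signs turned only for genes near 0 among those named. With 1 library left out, Psmb5 was at -0.25 to 0.040, Psme3 at -0.080 to 0.013 and H2-T23 at -0.19 to 0.073, each above 0 without optimized replicate 1 alone, and Rfx5 was at -0.085 to 0.033, above 0 without control replicate 1 or optimized replicate 2 or 3.

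Whether equal replicate numbers mark paired cultures is not stated in the sources used here, and the values did not settle it. Replicate 1 lay below its group mean for 9 of the 10 members in both groups. Deviations of same-numbered libraries correlated at 0.27, -0.01 and 0.18, and 1 of 3 controls correlated best with its own number. With the replicate number as a block, 9 members were lower and their median was -0.67, and calls over all genes went from 2218 to 2523 lower and from 2142 to 2401 higher. For the ratios the smallest p that the block allows is 0.25.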
